A study of Mus musculus with 6 samples.

Results

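The 10 genes described here are transcripts that follow the activity of the RAS-ERK pathway: Dusp4, Dusp5, Dusp6, Spry1, Spry2, Spry4, Spred1, Spred2, Etv4 and Etv5. They were chosen by symbol, 10 of the 31053 features listed, as a readout of SHP2 in mouse dorsal skin. Single-cell RNA libraries of 3 groups were compared, with 2 libraries per group. Sham skin was untreated. IMQ skin received 62.5 mg per day of a 5% imiquimod cream on the shaved back for 4 days, and was taken the day after the last dose. IMQ+SHP099 skin received the cream and SHP099 hydrochloride by gavage at 10 mg/kg per day, for a stated 4 additional days whose timing relative to the cream is not clear from the labels. All mice were female C57BL/6J of 8 to 10 weeks with no transgene. Each library pooled several mice, so the library was the replicate (n = 2 per group) and single mice cannot be told apart.

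Growth factor receptors use the phosphatase SHP2, encoded by Ptpn11, to switch on RAS, which activates RAF, MEK and ERK in turn. ERK then induces its own inhibitors. The DUSP phosphatases remove phosphate from ERK itself, with Dusp6 acting in the cytoplasm and Dusp4 and Dusp5 in the nucleus. The Sprouty proteins act between receptor and RAF, the Spred proteins bring the RAS-inactivating protein neurofibromin to the membrane, and Etv4 and Etv5 are transcription factors of the ETS family induced downstream of FGF receptors and ERK. Because these transcripts tend to fall when the pathway is blocked, they are commonly read as its output. Imiquimod, an agonist of the receptor TLR7, gives a psoriasis-like inflammation with a thickened epidermis, and SHP099 is an allosteric inhibitor of SHP2.

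In keratinocytes, the epithelial cells of the epidermis and hair follicle, Spred2 was lower in both IMQ libraries than in both Sham libraries. It was the single pass in 63 gene-by-class tests across 7 cell classes. Over all genes 2.43% of such tests passed, and 12.1% of those in keratinocytes, so this count is near the background. Within keratinocytes, Spry1 fell and Etv4 rose in basal cells, and Etv4 also rose in suprabasal cells. The suprabasal Etv4 call was lost under 2 of 14 alternative settings. Spry4 was called higher in basal cells, at no more than 3.01 CPM, and that call was not kept under every alternative. Of all genes, 28.1% passed in basal and 16.6% in suprabasal cells. Between IMQ+SHP099 and IMQ skin, none of the 63 tests passed, as was the case for all 80792 tests over all genes. The 63 fold changes were nearly evenly split, with 31 above 0 and 32 below. The growth factors Areg, Ereg and Tgfa rose in IMQ keratinocytes while the receptors Fgfr2 and Fgfr3 fell.

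The libraries kept 7382 to 10293 cells each and 51968673 to 170319612 UMIs, where a UMI marks 1 captured molecule. The median was 18263.5 UMIs per cell in IMQ+SHP099 replicate 1 and 5645 in IMQ+SHP099 replicate 2, against 8272 to 8854 in the other libraries. Cell make-up also differed within groups: the Sham libraries held 5992 and 1886 keratinocytes, the IMQ libraries 1323 and 842, and the IMQ+SHP099 libraries 5552 and 470, in replicate order. Pairs of libraries shared 14 to 43 barcodes. Cells were clustered without the 10 genes and without the other pathway genes, and clusters were named from marker genes, with 732 cells (1.44%) left unnamed. Levels below are CPM, the UMIs of a gene per 1000000 UMIs of all cells of a class in a library. Such a sum gives weight to deep cells and reads transcript abundance within a class, not the number of cells. Values are given in the order replicate 1 and replicate 2.

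The highest class differed from gene to gene, as the plot of levels by class shows. Among the phosphatases, Dusp5 was highest in lymphocytes, with a mean over the 6 libraries of 305.1 CPM and a range of 122 to 469.5. Myeloid cells followed at 172.3 (101.2 to 250.7), so the ranges of these neighbours overlapped. Dusp6 was highest in Schwann cells at 98.3 (16.4 to 158.9) and in endothelial cells at 81.2 (51.0 to 125.5), with overlapping ranges, and lowest in mural cells, the contractile cells around vessels, at 8.49. Dusp4 was at most 28.7 on average, in lymphocytes, and under 5 CPM on average in keratinocytes, fibroblasts, mural and endothelial cells.

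**Figure D1:**
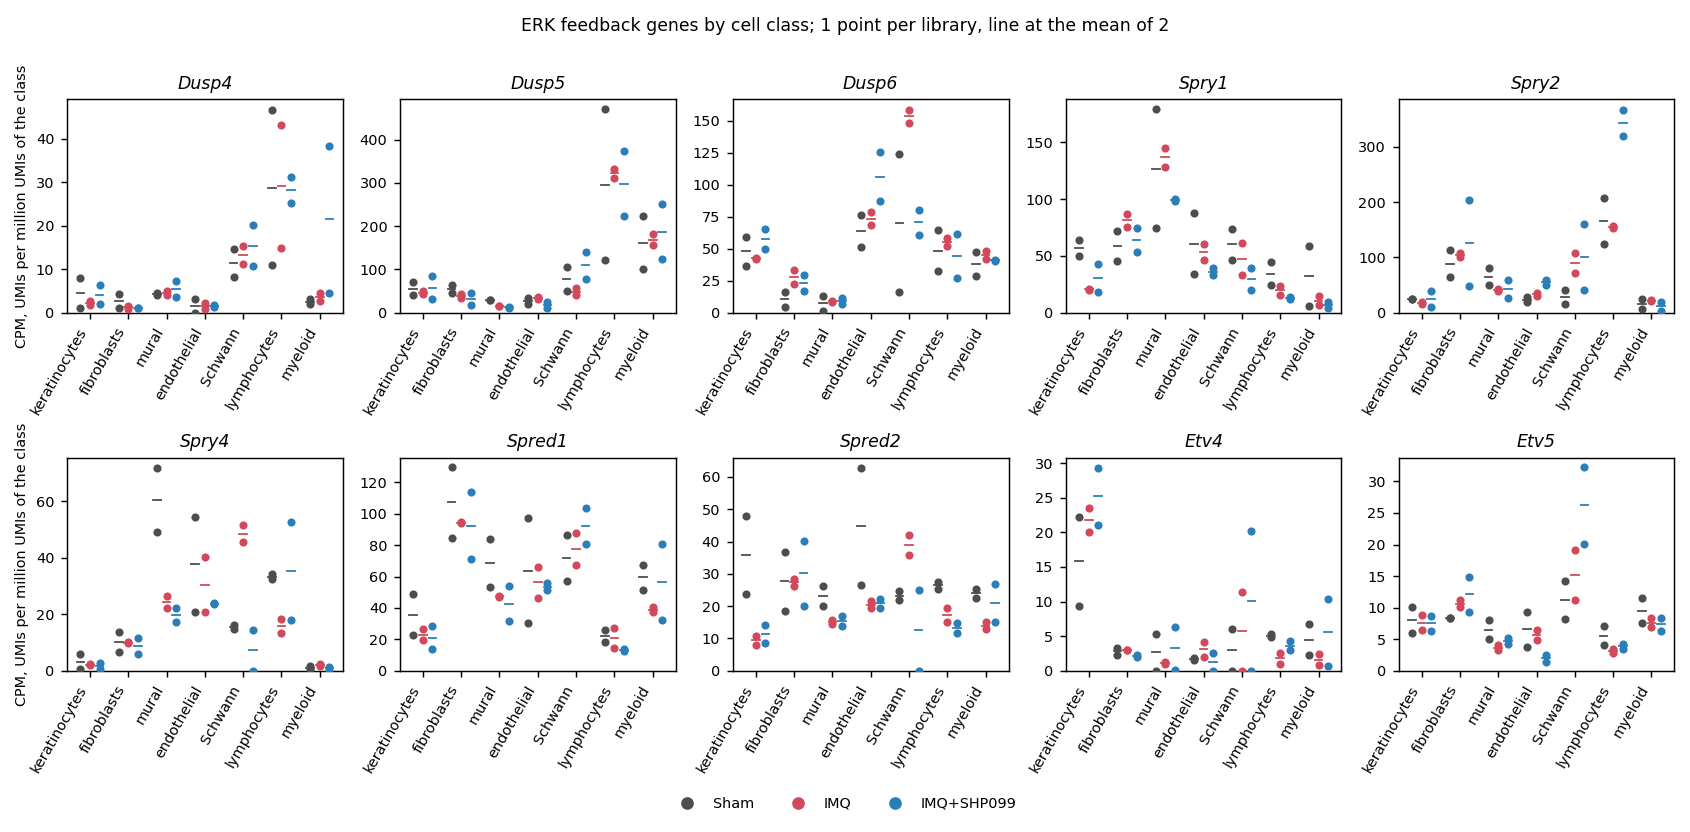
Level of each of the 10 genes (CPM) in 7 cell classes, with 1 point per library coloured by group. Dusp5 and Spry2 have their highest points in lymphocytes, Spry1 in mural cells and Etv4 in keratinocytes, and the 2 Sham libraries often lie far apart.

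Of the Sprouty genes, which act upstream of RAF, Spry1 and Spry4 were highest in mural cells and Spry2 in lymphocytes. Spry1 was highest in mural cells at 120.9 CPM (74.7 to 179), and the next class, fibroblasts, was at 68.0 (45.9 to 86.6). Spry2 was highest in lymphocytes at 221.6 (124.7 to 367.3), against 106.3 in fibroblasts (47.8 to 204.3). Spry4 was highest in mural cells at 34.9 (17.2 to 72.0) and endothelial cells at 30.6 (20.6 to 54.6), which did not differ beyond their spread. In keratinocytes and myeloid cells Spry4 averaged 2.34 and 1.30 CPM.

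Spred1 was highest in fibroblasts (71.0 to 130 CPM over the libraries), followed by Schwann cells (57.3 to 103.9). Spred2 showed the flattest profile: its class means ran from 17.9 in mural cells to 28.7 in endothelial cells, and neighbours in this order overlapped in every case. Etv4 was the gene with a keratinocyte profile, at a mean of 20.95 CPM in that class (9.39 to 29.4) against means of 6.27 or less in every other class. Single libraries overlapped: IMQ+SHP099 replicate 1 was at 20.14 in Schwann cells, from 1 UMI, and at 10.35 in myeloid cells. After each cell was thinned to 2000 UMIs, Etv4 was detected in 1.77% to 7.16% of keratinocytes and in 0.357% to 0.634% of fibroblasts, which serve here as the low class. Without thinning the shares were 8.80% to 44.2% and 0.951% to 2.57%, at median depths of 9646 to 35067 and 4960 to 8894.5 UMIs per cell. Etv5 was low throughout, from 4.18 in lymphocytes to 17.5 in Schwann cells.

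The class profile of each gene was set beside those of all genes averaging at least 20 CPM over the 42 sums of class by library. The sums share libraries and depth, and the Pearson correlations of the log2 levels are a description. Most like Spred2 were Clcn4 (r = 0.889), Zyg11b (0.882) and Rb1cc1 (0.880). Most like Spry1 were Bcl9l (0.889), Arhgap10 (0.856) and Tnks1bp1 (0.854), and most like Dusp5 were Cotl1 (0.841), Sub1 (0.840) and Rgs10 (0.834). The Etv4 profile was nearest to Nudt5 (0.802), that of Etv5 to Deptor (0.796), that of Dusp6 to Map3k1 (0.752), that of Dusp4 to Rasa2 (0.819), that of Spred1 to Vwa5a (0.882), that of Spry2 to Aak1 (0.722) and that of Spry4 to 1700020I14Rik (0.833). Between the 10 genes, the highest correlation was 0.647, for Dusp4 with Dusp5, and the lowest was -0.693, for Dusp5 with Spry1.

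The first comparison asked whether imiquimod treatment moved the output of the pathway. Summed counts per class and library were tested with edgeR's quasi-likelihood test over all genes of a class, and a gene was called at a Benjamini-Hochberg adjusted p under 0.05. In keratinocytes, Spred2 (GRCm38 chr11:19924375-20024026, plus strand), whose protein restrains RAS activation of RAF, stood at 23.9 and 47.9 CPM in the Sham libraries. It was at 7.99 and 10.9 with imiquimod alone and at 8.66 and 14.3 with the inhibitor added. Each IMQ library was thus below each Sham library, although the Sham libraries differed between themselves by more than the IMQ libraries did. The log2 fold change for IMQ against Sham was -1.60 (SE 0.29, 95% interval -2.26 to -0.95, edgeR adjusted p = 0.0104). The call was lost without IMQ replicate 1 (adjusted p = 0.140) or without IMQ replicate 2 (0.052). Of all keratinocyte genes tested in this comparison, 12.1% were called, and over all gene-by-class tests of the 7 classes 2.43%, so 1 call in 63 is near the background.

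Thinned to 2000 UMIs per cell, Spred2 was detected in 5.10% and 9.26% of Sham keratinocytes. The shares were 1.49% and 2.69% with imiquimod and 1.39% and 0.693% with the inhibitor added. The exact binomial 95% intervals cover counting error only, and ran from 4.55% to 5.70% in Sham replicate 1 and from 1.69% to 4.04% in IMQ replicate 2, so the lower Sham and the higher IMQ library did not overlap. Cells shallower than 2000 UMIs, 227 and 72 in Sham, 45 and 23 with imiquimod and 94 and 37 with the inhibitor added, were left out. Without thinning the shares were 22.1% and 43.6%, 20.9% and 24.5%, and 18.9% and 23.0%, at a median of 9646 and 15140 UMIs per keratinocyte in Sham and 21634.5 to 35067 in the treated libraries. No class lacked Spred2, so no background share could be given.

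The keratinocyte classes separated the changes, as the plot of 4 genes in basal, suprabasal and follicle cells shows. In basal cells, Spred2 stood at 36.7 and 92.2 CPM in Sham and at 14.3 and 18.9 in IMQ, a log2 fold change of -1.84 (SE 0.37, edgeR adjusted p = 0.0051). Spry1 (chr3:37639947-37644598, plus strand) fell more, from 77.5 and 47.4 to 9.13 and 15.0, a log2 fold change of -2.43 (SE 0.54, edgeR adjusted p = 0.0083). Etv4 (chr11:101769742-101785371, minus strand) went the other way, from 10.8 and 17.6 to 36.4 and 36.8, a log2 fold change of 1.45 (SE 0.26, edgeR adjusted p = 0.0032). Thus Spred2 and Spry1 fell in the class in which Etv4 rose. Other members of their families were not called there: the log2 fold change was -0.14 for Etv5 and -0.23 for Spry2. Spred1 was at 24.7 and 54.5 in Sham against 25.4 and 38.6 in IMQ. Spry4, by contrast, was called higher in basal cells, at a log2 fold change of 3.02 (SE 0.78, edgeR adjusted p = 0.0169). Its levels were 0.138 and 0.720 in Sham and 2.34 and 3.01 in IMQ, from 5 to 31 UMIs per library. That call was lost without Sham replicate 1 (adjusted p = 0.078), without IMQ replicate 1 (0.062), without IMQ replicate 2 (0.063) and when cells were classed by marker scores (0.365).

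**Figure D2:**
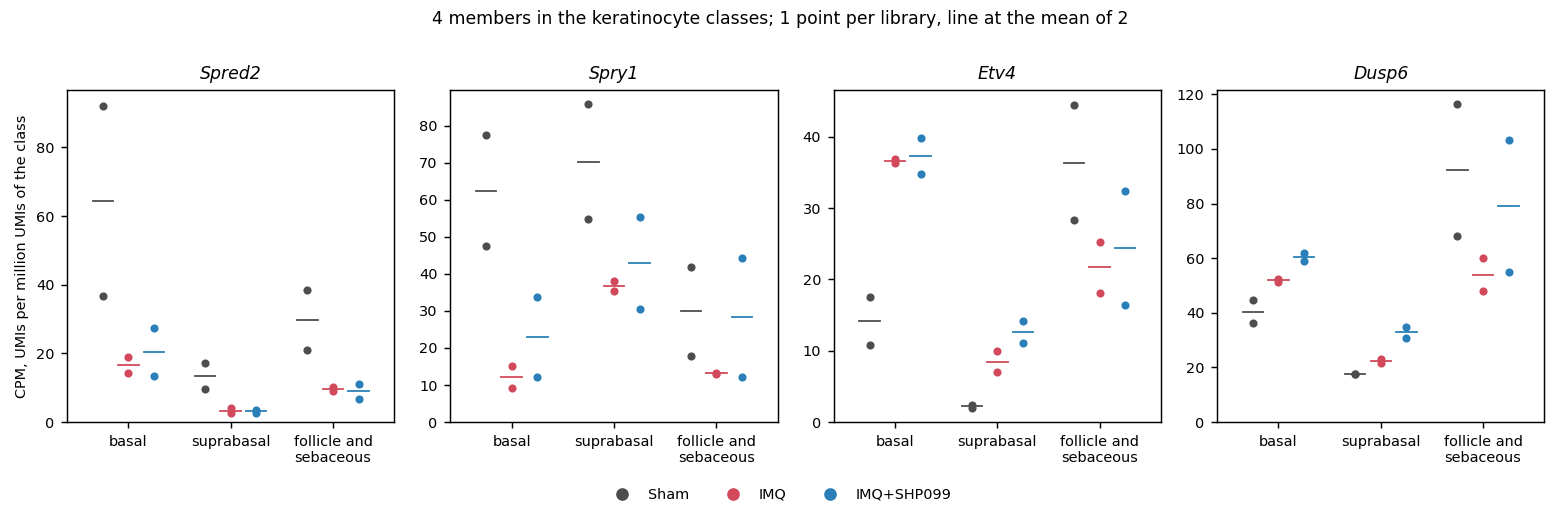
Levels (CPM) of Spred2, Spry1, Etv4 and Dusp6 in basal, suprabasal and hair follicle or sebaceous keratinocytes, with 1 point per library coloured by group. In basal cells each IMQ point lies below each Sham point for Spred2 and Spry1 and above them for Etv4.

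In suprabasal cells, the differentiating layers above the basal cells, Etv4 stood at 1.97 and 2.46 CPM in Sham and at 9.91 and 7.01 in IMQ. Its log2 fold change was 2.39 (SE 0.36, edgeR adjusted p = 0.0021). Spred2 fell there as well, from 9.76 and 17.3 to 2.65 and 4.03, a log2 fold change of -1.58 (SE 0.38, edgeR adjusted p = 0.0193). Spry1 was at 54.8 and 85.8 in Sham and 35.5 and 38.2 in IMQ without a call (edgeR adjusted p = 0.393). In hair follicle and sebaceous cells no member was called. Spred2 was at 21.1 and 38.5 in Sham and 9.11 and 10.3 in IMQ (edgeR adjusted p = 0.0586), and Etv4 was lower in both IMQ libraries, at 28.4 and 44.4 against 18.2 and 25.2.

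The calls stood against a high background: 28.1% of genes were called in basal, 16.6% in suprabasal and 6.57% in follicle cells. The suprabasal calls were lost for Etv4 with marker scores (adjusted p = 0.172) and with thinned cells (0.053), and for Spred2 without Sham replicate 2 (0.106), without IMQ replicate 1 (0.222) and with thinned cells (0.401). The basal calls of Spred2, Spry1 and Etv4 held in all 14 alternatives, which for these 3 keratinocyte classes were chosen after the data were seen. Sham and treated cells of a class lay in different clusters, Sham basal cells at 92.8% and 82.2% in cluster 0 and the rest mostly in cluster 13, and IMQ basal cells in cluster 8. A list of 15 dissociation and stress genes summed to 14910 and 15540 CPM in Sham keratinocytes, against 11610 and 10420 with imiquimod and 10260 and 11150 with the inhibitor added. Its part in these differences was not tested.

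The sequences just upstream of 3 of the genes are shown because Spred2 and Spry1 fell in the basal class while Dusp6, another ERK target, was not called there. They come from RefSeq (GRCm38.p6), plus strand, and end at the base before the annotated gene start. Capitals mark GGAA on either strand (TTCC on the strand shown), the core that ETS factors such as Etv4 recognise.
Spred2, chr11:19924192-19924374: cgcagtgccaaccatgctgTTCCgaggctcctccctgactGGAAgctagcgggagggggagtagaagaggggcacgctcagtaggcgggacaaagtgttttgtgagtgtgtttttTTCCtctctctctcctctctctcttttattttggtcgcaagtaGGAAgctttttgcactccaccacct
Spry1, chr3:37639697-37639946: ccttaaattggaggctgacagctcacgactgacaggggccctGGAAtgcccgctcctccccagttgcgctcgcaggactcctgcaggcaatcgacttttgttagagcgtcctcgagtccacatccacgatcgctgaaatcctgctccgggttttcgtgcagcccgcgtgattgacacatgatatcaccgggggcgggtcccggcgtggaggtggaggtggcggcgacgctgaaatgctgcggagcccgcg
Dusp6, chr10:99262981-99263230: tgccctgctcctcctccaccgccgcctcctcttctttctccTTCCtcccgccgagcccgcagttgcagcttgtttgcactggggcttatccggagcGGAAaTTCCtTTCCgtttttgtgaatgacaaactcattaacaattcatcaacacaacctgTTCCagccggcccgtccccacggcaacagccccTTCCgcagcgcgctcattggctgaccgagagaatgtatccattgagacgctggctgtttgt
The core occurred 4 times in the 183 bases shown for Spred2, once in the 250 bases of Spry1 and 6 times in the 250 bases of Dusp6. It is frequent by itself: of the 32851 RefSeq mouse promoters, 93.5% hold it on either strand in a window of 250 bases. In that full window, which for Spred2 runs past the GENCODE gene start, Spred2 held it 7 times. The longer ETS form CCGGAAG was held by 6.91% of promoters on either strand, and the AP-1 form TGANTCA by 6.75%. Neither was in any of the 7 genes searched, over the same full windows. The CRE-like form TGACG, held by 17.8%, was found in the full windows of Spred2 and Dusp5, and for Spred2 its match lies outside the stretch shown. Dusp4, Etv4 and Spry4 were not among these 7 genes, and their promoters were not examined. The search of the members left out chromosomes 8 and 18, which hold Dusp4 and Spry4. These are letter matches and say nothing of binding.

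Whether the Spred2 response differed between cell classes was tested directly, with the library as a block. In fibroblasts, the collagen-producing cells of the dermis, Spred2 was at 18.6 and 36.9 CPM in Sham and 26.2 and 28.5 in IMQ, and the groups overlapped. The IMQ effect was lower in keratinocytes than in fibroblasts by 1.70 on the log2 scale, written as keratinocytes minus fibroblasts at -1.70 (SE 0.28, edgeR adjusted p = 0.0123). The call was lost without IMQ replicate 1 (adjusted p = 0.094). For Dusp6 the same difference was -1.49 (SE 0.46) and did not pass (edgeR adjusted p = 0.0815). Of all genes, 8.8% were called for this difference, and Spred2 was 1 of the 10 genes.

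Outside keratinocytes no gene of the 10 was called for IMQ against Sham. In fibroblasts, where 1.38% of genes were called, Dusp6 was at 4.17 and 16.4 CPM in Sham and 33.3 and 22.1 in IMQ, higher in both IMQ libraries (edgeR adjusted p = 0.216). In mural cells, Spry4 was at 49.3 and 72.0 in Sham and 26.6 and 22.2 in IMQ, a log2 fold change of -1.18 (SE 0.25, edgeR adjusted p = 0.191). Dusp5 was also lower in both IMQ libraries of that class, at 29.3 and 30.1 against 16.2 and 16.0 (edgeR adjusted p = 0.311). In Schwann cells, where 0.28% of genes were called, Dusp6 was at 16.4 and 124.5 in Sham and 148.7 and 158.9 in IMQ, but Sham replicate 1 held 31 such cells. Levels were also scaled between libraries as in the edgeR fit, which can change their order from that of the CPM printed here. On these scaled levels, both IMQ values were over those of Sham in 15 of the 63 gene-by-class tests (23.8%). They were under them in 14 (22.2%). Over all genes these shares were 23.6% and 24.9%. The median log2 fold change of the 63 tests was -0.067.

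The second comparison asked whether the SHP2 inhibitor lowered the output of the pathway in IMQ skin. None of the 63 tests was called, as was the case for all genes in all 7 classes (0.0% of 80792 tests in edgeR). DESeq2 called 8 genes higher and 10 lower in keratinocytes, 0 to 3 genes in each other class, and none of the 63 tests. On the levels scaled as in the edgeR fit, both values with the inhibitor were under those of IMQ alone in 13 tests (20.6%). They were over them in 10 (15.9%), and these shares were 15.2% and 14.7% over all genes. At an unadjusted p under 0.05 there were 6 of 63 (9.52%), against 1.82% over all genes, and 4 of the 6 were higher in IMQ+SHP099. These 6 were Spry2 in endothelial cells and lymphocytes, Dusp6 in keratinocytes and Schwann cells, Spry4 in Schwann cells and Dusp4 in myeloid cells, each with an edgeR adjusted p of 1. The median log2 fold change was -0.0029.

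**Figure D3:**
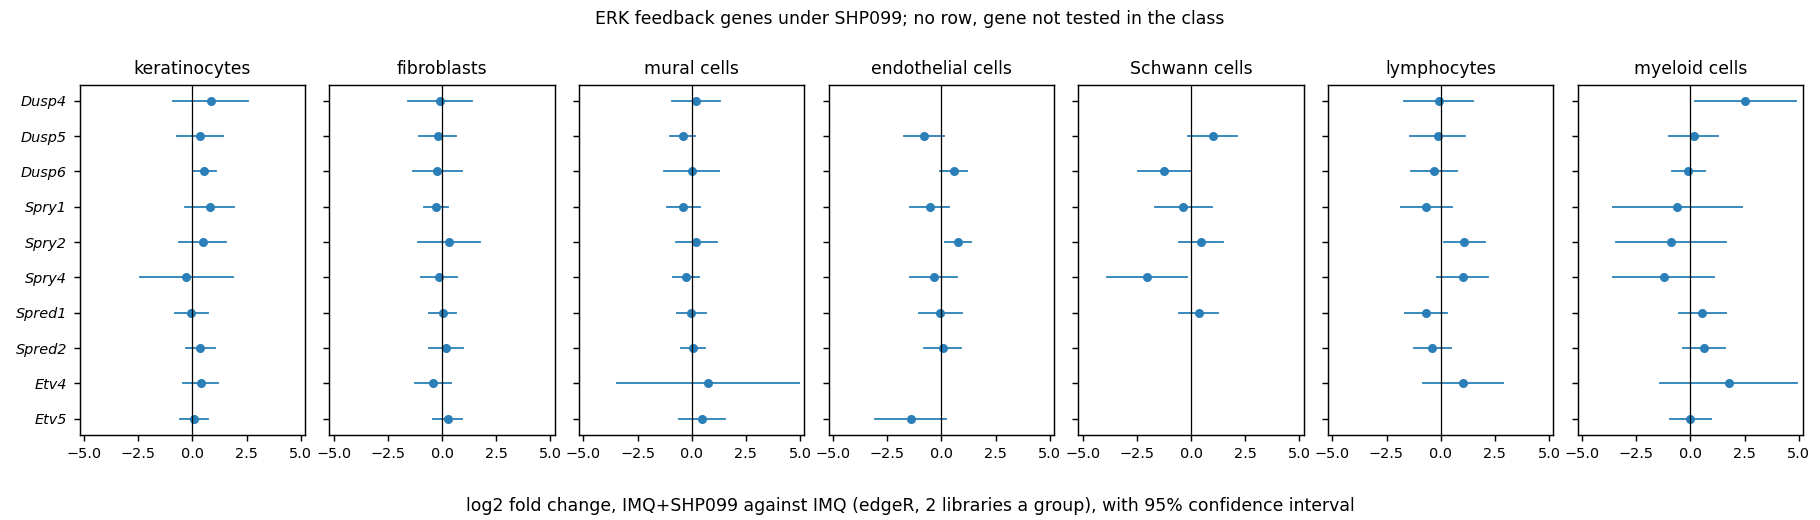
Log2 fold change of each of the 10 genes for IMQ+SHP099 against IMQ in 7 cell classes, with bars for the 95% interval from the edgeR fit. In all but 6 of the 63 tests the unadjusted p was 0.05 or more, and the points fall on both sides of 0.

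The direct ERK phosphatase Dusp6, often used as the readout of ERK activity, was at 42.4 and 42.3 CPM in IMQ keratinocytes and at 49.5 and 65.3 in IMQ+SHP099 keratinocytes. Both treated libraries with the inhibitor were therefore above both without it. The log2 fold change was 0.54 (95% interval 0.02 to 1.07), and this interval is not adjusted for the number of genes. In endothelial cells Dusp6 was higher in both libraries with the inhibitor, at 87.3 and 125.5 against 68.3 and 78.4. With cells classed by marker scores it was at 61.2 and 99.6 against 60.9 and 66.0, and the groups overlapped. In Schwann cells it was lower in both, at 80.6 and 60.9 against 148.7 and 158.9, a log2 fold change of -1.23 from 24 and 108 cells. In fibroblasts it was at 16.6 and 29.5 against 33.3 and 22.1, and the groups overlapped.

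Among the Sprouty genes, Spry2 separated the classes. In lymphocytes it was at 156.5 and 153.7 CPM in IMQ and at 367.3 and 320.2 in IMQ+SHP099, a log2 fold change of 1.09 (95% interval 0.16 to 2.03). In endothelial cells it was at most 36.4 in IMQ and at least 50.8 in IMQ+SHP099, a log2 fold change of 0.75. This separation was seen in the summed levels of cells classed by cluster. With cells classed by marker scores Spry2 was at 40.1 and 82.9 with the inhibitor against 43.2 and 34.9 with imiquimod alone, and the groups overlapped. Detection in endothelial cells thinned to 2000 UMIs also overlapped between the groups. With the inhibitor, Spry2 was detected in 2.78% and 9.32% of these cells, against 4.62% and 4.25% with imiquimod alone. In fibroblasts the libraries of the inhibitor group disagreed: Spry2 was at 47.8 and 204.3, below and above the IMQ values of 100.9 and 108. The same direction held elsewhere, with replicate 2 at 3.92 times replicate 1 in keratinocytes, 2.15 times in mural cells, 4.00 times in Schwann cells and 5.26 times in myeloid cells, but 1.16 times in endothelial cells and 0.872 times in lymphocytes. In Schwann cells Spry4 was at 45.8 and 51.5 in IMQ and at 0 and 14.3 in IMQ+SHP099. The 0 came from a sum of 49650 UMIs, a count of 0 that allows a level up to 60.4 CPM.

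The lymphocyte class was made of 2 main clusters with different Spry2 levels. Cluster 9, led by Cd7, Cd3g, Trdc and Tcrg-C1, held Spry2 at 644.8 and 396.4 CPM in IMQ, against 573.7 and 1569 with the inhibitor. Cluster 20, led by Ccl5, Gzma, Il17a and Il22, held it at 54.1 and 125.5 in IMQ, against 50.8 and 154 with the inhibitor. The groups overlapped within each cluster. Cluster 9 made up 277 and 57 cells in IMQ, against 391 and 144 with the inhibitor, and cluster 20 made up 511 and 316, and 89 and 407. Cluster 9 thus held most lymphocytes of IMQ+SHP099 replicate 1, and its Spry2 level was highest in IMQ+SHP099 replicate 2. The part of cell make-up in the lymphocyte value was not tested.

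Basal Spry1, which had fallen with imiquimod, was at 9.13 and 15.0 CPM in IMQ and at 33.8 and 12.2 in IMQ+SHP099. Its log2 fold change was 1.19 (95% interval 0.02 to 2.35), and the groups overlapped. This interval is not adjusted for the number of genes, and Spry1 was not called. Replicate 2 with the inhibitor lay within the IMQ values, so the higher mean rested on replicate 1. Basal Spred2 was at 14.3 and 18.9 against 13.5 and 27.3, a log2 fold change of 0.35 (95% interval -0.47 to 1.17). Basal Etv4 was at 36.4 and 36.8 against 39.9 and 34.8, a log2 fold change of 0.17 (-0.40 to 0.73). The Spred2 and Etv4 levels of basal cells were thus not moved by an amount that could be detected, and the Etv4 interval leaves room for changes of under 1 log2 unit in either direction. In suprabasal cells Dusp6 was at 23.0 and 21.5 against 34.9 and 30.8 (log2 fold change 0.62).

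In myeloid cells, Dusp4 was at 4.58 and 2.76 CPM in IMQ and at 38.5 and 4.59 in IMQ+SHP099, a log2 fold change of 2.53 that rested on 1 library. In that library, IMQ+SHP099 replicate 1, Langerhans cells were 173 of 261 myeloid cells and held 117 of the 119 Dusp4 UMIs. In IMQ they were 74 of 886 and 67 of 1041. Within Langerhans cells Dusp4 was at 17.0 and 8.61 in IMQ and at 43.7 and 6.99 in IMQ+SHP099, and the groups overlapped. The part of cell make-up in the myeloid value was not tested. In keratinocytes the summed level of the 10 genes was 191.3 and 194.5 CPM in the IMQ libraries, with 194.6 and 288.2 in those given the inhibitor. IMQ+SHP099 replicate 1 was thus level with IMQ, and the difference came from IMQ+SHP099 replicate 2. In lymphocytes the sum was 636.7 and 642.7 against 739.9 and 852.3, higher in both libraries with the inhibitor. Of this sum Spry2 gave 156.5 and 153.7 against 367.3 and 320.2. Dusp5, at 310.7 and 332.3 against 222.7 and 373.6, overlapped. Of the 9 members tested in lymphocytes, 3 fold changes were above 0 and 6 below, so the sum does not show a rise of the members in general. In mural cells the sum was 311.8 and 286 against 240.5 and 268.1, lower in both. With 2 libraries per group an exact permutation test cannot go below p = 0.33. In the other 4 classes the libraries overlapped.

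The spread between libraries limits the inhibitor comparison. Of the 61 gene-by-class pairs seen in all libraries, the replicates differed by over 2-fold in 26 for Sham, 4 for IMQ alone and 21 with the inhibitor. The median fold between replicates was 1.70, 1.20 and 1.68. Sham replicate 1 and IMQ+SHP099 replicate 1, both rich in keratinocytes, also carried more keratinocyte transcripts in other classes: 8 basal keratinocyte markers summed to 4172 and 3616 CPM in their mural cells, against 322.9 to 842.4 in the other libraries. Etv4 in mural cells was at 5.33 and 6.30 in these 2 libraries and at 0 to 1.26 in the others. The part of keratinocyte RNA in these Etv4 values was not tested. Spry1 in myeloid cells was at 58.9 in Sham replicate 1, where 364 of 549 myeloid cells were Langerhans cells and held 544 of the 559 Spry1 UMIs, and at 3.88 to 14.5 elsewhere. Langerhans cells stood at 64.8 in that library and at 10.5 in IMQ+SHP099 replicate 1. Neither cell make-up nor keratinocyte RNA was tested for its part in the Spry1 value.

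IMQ+SHP099 skin was also set against Sham, a comparison that shares its libraries with the other 2. In keratinocytes, where 12.9% of genes were called, Spred2 was lower by a log2 fold change of -1.23 (SE 0.28, edgeR adjusted p = 0.0282), the single call of the 63 tests against 2.41% over all genes. The call was lost in 5 of the 6 fits that left out a library, with adjusted p of up to 0.179, and the log2 fold change was -2.17 with thinned cells. In basal cells, with 26.8% of genes called, Spred2 was lower (log2 fold change -1.49, SE 0.37, edgeR adjusted p = 0.0145) and Etv4 higher (1.61, SE 0.26, adjusted p = 0.0021). In suprabasal cells, with 16.6% called, Etv4 was higher by 3.04 (SE 0.37, edgeR adjusted p = 0.00068), Spred2 was lower (-1.63, SE 0.38, adjusted p = 0.0185) and Dusp6 was higher by 1.38 (SE 0.28, adjusted p = 0.0096). The levels of Dusp6 there were 17.8 and 17.6 in Sham and 34.9 and 30.8 in IMQ+SHP099. In follicle cells, with 4.32% called, none of the 10 was called. Of these calls, the basal Etv4 call was the one kept under every alternative. Basal Spred2 was lost without Sham replicate 2 (0.051), without IMQ+SHP099 replicate 1 (0.162) and with marker scores (0.056), suprabasal Dusp6 without Sham replicate 2 (0.083), suprabasal Etv4 with marker scores (0.080), and suprabasal Spred2 without Sham replicate 2 (0.106) or IMQ+SHP099 replicate 1 (0.103).

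The other genes of the pathway were followed with 71 genes in 5 lists, in 450 gene-by-class tests. For IMQ against Sham 15 were called, 9 higher and 6 lower, and all but 1, Ccnd1 in fibroblasts, were in keratinocytes. Over all genes, 2.43% of the tests in the 7 classes and 12.1% of those in keratinocytes were called. Whether the lists differed from these shares was not tested, so the count is not a result about the lists. For IMQ+SHP099 against IMQ 0 were called by edgeR and 0 by DESeq2, with 14 of 450 at an unadjusted p under 0.05, against 1.82% over all genes. Among the 18 receptors and ligands, 5 rose and 3 fell in IMQ keratinocytes, with a median log2 fold change of 0.51 against -0.07 over all genes tested. Areg, a ligand of the EGF receptor, was at 41.7 and 48.7 CPM in Sham and 633.3 and 396.9 in IMQ, a log2 fold change of 3.79 (SE 0.52, edgeR adjusted p = 0.0033). Ereg, another such ligand, went from 16.5 and 9.38 to 254.3 and 160.1 (log2 fold change 4.20, SE 0.62, adjusted p = 0.0047). Tgfa went from 16.4 and 16.3 to 35.6 and 31.6 (log2 fold change 1.30, SE 0.31, adjusted p = 0.0333).

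**Figure D4:**
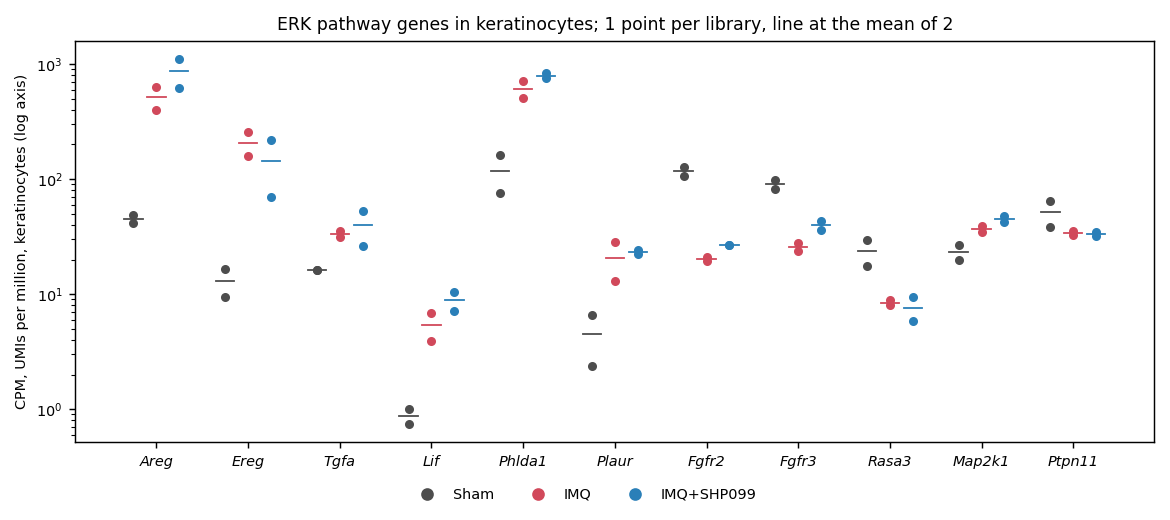
Levels in keratinocytes (CPM, log axis) of EGF receptor ligands, FGF receptors and other pathway genes, with 1 point per library coloured by group. Areg, Ereg, Tgfa, Lif, Phlda1, Plaur and Map2k1 lie higher and Fgfr2, Fgfr3 and Rasa3 lower in both IMQ libraries than in both Sham libraries.

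The FGF receptor Fgfr2 fell from 127.8 and 106.4 CPM in Sham to 19.4 and 20.9 in IMQ keratinocytes (log2 fold change -2.31, SE 0.31, edgeR adjusted p = 0.0033). Fgfr3 fell from 82.2 and 99.1 to 27.8 and 23.6 (log2 fold change -1.54, SE 0.29, adjusted p = 0.0130). For each receptor the IMQ values were below all Sham values. The remaining calls of this list were Met, which fell, and Pdgfra and Pdgfrb, which rose at levels of at most 18.2 CPM. Pdgfra and Pdgfrb are markers of fibroblasts and mural cells, and a list of 4 collagen genes summed to 523.2 and 947.1 in Sham keratinocytes and 292.7 and 586.4 in IMQ keratinocytes. The part of RNA from other cells in these 2 calls was not tested.

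Of the 9 genes for SHP2 and its adaptors none was called in keratinocytes. Ptpn11 itself was at 38.1 and 64.8 CPM in Sham, against 32.6 and 35.4 with imiquimod and 32.1 and 34.5 with the inhibitor added. Its log2 fold change was -0.28 (95% interval -0.82 to 0.26) for IMQ against Sham and 0.10 (-0.45 to 0.64) for IMQ+SHP099 against IMQ, and it was not called in any of the 7 classes. The inhibitor acts on the protein, so the transcript checks nothing about inhibition. Of the 8 genes for RAS and its regulators, Rasa3, a RAS-inactivating protein, fell (17.5 and 29.5 to 8.83 and 8.07, log2 fold change -1.16, edgeR adjusted p = 0.0278), as did the activator Rasgrp1. Of the 11 genes for RAF, MEK and ERK, Map2k1, which encodes the kinase MEK1, was the one called, and it rose from 19.9 and 26.8 to 39.1 and 34.6.

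Among 25 other ERK-responsive transcripts, 3 rose and 0 fell in IMQ keratinocytes, with a median log2 fold change of 0.069. This count is near the 12.1% of all keratinocyte genes called and is not a result about the list. Phlda1 rose from 161.7 and 75.5 CPM in Sham to 716.4 and 508.2 in IMQ (log2 fold change 2.55, SE 0.55, edgeR adjusted p = 0.0221). The cytokine Lif rose from 0.742 and 1.00 to 6.87 and 3.88 (2.93, SE 0.46, adjusted p = 0.0065), and Plaur, the urokinase receptor, was at 6.64 and 2.35 against 28.5 and 12.9. In IMQ+SHP099 keratinocytes Phlda1 was at 830 and 755.3, Areg at 1106 and 620.3 and Lif at 10.4 and 7.18, while Ereg was at 70.2 and 217.2. None of these was called against IMQ. Against Sham, the IMQ+SHP099 log2 fold changes were 4.70 for Areg, 3.80 for Lif, 3.69 for Ereg, 3.05 for Phlda1 and -1.76 for Fgfr2, each called (edgeR adjusted p of 0.0019, 0.0027, 0.0081, 0.0131 and 0.0106).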

How the data were processed

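Single-cell RNA was captured from mouse dorsal skin in 6 libraries. The deposited matrices give unnormalized UMI counts by gene and barcode, made by the authors with Cell Ranger 3.1.0 against GRCm38 (mm10). The study's limits were applied: fewer than 100000 UMIs, fewer than 6500 genes and a mitochondrial share below 10%, which kept 50850 of 55201 barcodes. Cells were clustered without integration (3000 variable genes, excluding the 10 members and the pathway lists, 30 principal components, 20 neighbours, Leiden resolution 0.8) in scanpy 1.11.5, and 35 clusters were named from marker lists as the authors' cell labels were not used. Doublets were kept; 504 cells (0.991%) had a Scrublet score over 0.3.

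UMI counts were summed per class and library and tested with edgeR 4.0.16 (TMM, filterByExpr, quasi-likelihood F test, all 3 groups in 1 fit, R 4.3.3), with adjustment over all genes of the class. The difference between keratinocytes and fibroblasts was an interaction with the library as a block. The scripts were tested on simulated counts. The libraries are pools, so p-values measure the spread between pools. Alternatives were DESeq2 1.42.0, no filter on low counts, a replicate block, only the 2 groups compared, each library left out, marker scores for classes, under 5% mitochondrial UMIs, doublets left out and cells thinned to 2000 UMIs. All 10 members are named; of the pathway lists, called genes ranked by adjusted p, at most 10 per comparison, and Ptpn11; other called genes were named after their values were seen. The members, lists and tests were chosen with earlier results of these data known. Gene positions come from GENCODE vM21 and promoters from RefSeq.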

Additional observations from a re-analysis of the deposited data

Results flagged for a closer look

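The IMQ effect on Spred2 differed between keratinocytes and fibroblasts by -1.70 on the log2 scale (keratinocytes minus fibroblasts, SE 0.28, edgeR adjusted p = 0.0123, n = 2 libraries per group). In keratinocytes each IMQ library was below each Sham library, and the groups overlapped in fibroblasts. Each IMQ library was also below each Sham library, without a call, in mural, endothelial, lymphocyte and myeloid cells. The cause was not tested.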

How the results depend on the processing

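Of the fold changes of single genes over all alternatives, 3640 kept their direction and their side of the threshold, 304 that were not called changed sign, 61 gained a call and 24 lost one. No called fold change turned direction. For IMQ against Sham, the 1 call of the 10 genes over 7 classes became 2 with DESeq2, 5 with no filter on low counts and 0 to 2 with a library left out. The count for the inhibitor against IMQ alone was 0 under all 14 alternatives. For IMQ+SHP099 against Sham, 1 became 4 with DESeq2, 8 with no filter, 2 with marker scores, with under 5% mitochondrial UMIs and with thinned cells, and 0 to 3 with a library left out. For the difference between keratinocytes and fibroblasts, 1 became 2 with DESeq2, 3 with no filter and 0 to 3 with a library left out. For the pathway lists, the 15 calls for IMQ against Sham became 43 with DESeq2, 62 with no filter, 12 with only the 2 groups compared and 5 to 19 with a library left out, the fewest without IMQ replicate 1 (5) and IMQ replicate 2 (7). The 0 calls for IMQ+SHP099 against IMQ became 4 with no filter and 0 to 1 with a library left out. Detection in at least 5% of cells, found in 30 of 70 gene-by-class means at 2000 UMIs, fell to 14 at 1000 UMIs per cell. The summed level was lower in IMQ+SHP099 in 3 of 7 classes. With marker scores or thinning a library held fewer than 20 Schwann cells, and that class was not fitted. The causes were not tested.

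With the replicate block, the calls were 2 for IMQ against Sham, 3 for IMQ+SHP099 against Sham, 0 for the inhibitor against IMQ alone and 30 for the pathway lists in IMQ against Sham. The deviations of same-numbered libraries had correlations of -0.0069 to 0.516 over classes and pairs of groups, over 0.1 for all 3 pairs of groups in lymphocytes. The labels do not tie the numbers to a shared batch, so the numbers were not taken as a pairing. The block already was the library in the difference between keratinocytes and fibroblasts. Small classes limit depth: Schwann cells numbered 24 to 419 per library.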
